A study of Mus musculus with 42 samples.

Results

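The 10 genes described here encode the transcription factors most closely tied to the endothelial lineage. Erg, Fli1, Ets1 and Ets2 are ETS factors, Sox7, Sox17 and Sox18 form the SOXF group, Gata2 and Gata6 are zinc finger factors of the GATA family, and Tal1 is a basic helix-loop-helix factor. They were taken by name, with no threshold on any value, from the 21674 genes of the deposited expression table. All 10 were in the table, and all 10 passed the filter on low counts in each of 13 comparisons. Their RNA was followed through 42 libraries, most of them from the inner layer (intima) of mouse carotid arteries, that the study made to ask how low flow, recruited blood cells and the splicing factor Rbfox2 change endothelial RNA.

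The untreated arteries came from male C57BL/6J mice aged 6 to 7 weeks. Low flow was made by tying off 3 of the 4 outflow branches of the left carotid, the contralateral carotid of such mice served as the high-flow artery, and sham arteries were not tied. RNA was flushed from the intima 48 h later, and each library pooled 3 to 5 flushes, with 3 pools per group. In a second set at 48 h, with 2 pools per group, mice of the same strain, sex and age received anti-GPIba (against platelets), anti-Gr1 (against neutrophils) or control IgG, or clodronate liposomes (against macrophages) or PBS liposomes. All 5 treatments had low-flow pools, and only IgG and PBS liposomes had high-flow pools as well. Another set was taken after 7 days from mice of both sexes aged 2 to 7 months on a C57 background. Rbfox2 EC-KO mice carried floxed Rbfox2, the mT/mG reporter and Cdh5(PAC)-CreERT2, a tamoxifen-inducible Cre driven by the endothelial Cdh5 promoter, and littermate Rbfox2 controls carried the floxed gene and the reporter without Cre. Low flow had 3 pools and high flow 2 pools of each genotype. Single libraries came from cultured aortic endothelial cells: eGFP+ primary cells of mice with the same Cre and reporter, primary Rbfox2 EC-KO and Rbfox2 control cells sorted on CD31 and Icam2, and a single TetOn-SV40 immortalised line. The line was kept in static culture without doxycycline for 48 h alone, with 10% plasma, with platelets and macrophages (added as bone-marrow monocytes), or with all of these.

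ETS factors bind a GGAA core that is present in the control regions of nearly all endothelial genes. ERG and FLI1 keep mature endothelium in its endothelial state, ETS1 is induced in endothelium that migrates or forms vessels, and ETS2 is a close relative of ETS1 expressed in many tissues. SOXF factors act downstream of VEGF and Notch in arterial specification, where SOX17 marks arterial cells and SOX7 and SOX18 act partly redundantly. GATA2 maintains endothelial and blood progenitor genes, GATA6 is expressed in endothelium, vascular smooth muscle and large peritoneal macrophages, and TAL1 works in a complex with LMO2, LDB1 and E proteins in blood and endothelial precursors.

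Library totals ran from 4064477 to 6794904 counts in the untreated pools, from 12286104 to 19035957 in the depletion set and from 10318685 to 18633538 in the 7-day set. Values given below for artery pools are scaled FPKM, that is, counts per kilobase of effective transcript length (FPKM) after edgeR's TMM scaling of the library sizes within each set. The flow labels held in every untreated pool, since Klf2, which laminar flow induces, lay at 0.982 to 3.66 scaled FPKM in the low-flow pools and at 36.9 to 53.3 in the high-flow pools. The genotype labels held as well, with every EC-KO pool below every control pool of its flow, although Rbfox2 itself passed adjustment under neither flow. At 7 days it was at 1.08, 0.174 and 0.603 scaled FPKM in the low-flow EC-KO pools and at 3.11, 5.59 and 2.76 in the low-flow controls, and at 0.775 and 1.09 in the high-flow EC-KO pools against 3.73 and 4.05 in the high-flow controls, with log2 differences of -2.61 (unadjusted p = 0.00116, adjusted p = 0.692, edgeR) and -2.06 (0.014, adjusted p = 1). All 11 endothelial markers were detected in the arteries, as in every other group, so detection alone does not tell the groups apart. They summed to 10918 to 11895 CPM (counts scaled to the library total) in untreated high flow and 5022 to 6250 in untreated low flow. That gap depends on the scale, since with TMM scaling the sums were 9722 to 10050 in high flow and 5588 to 9629 in low flow, with 2 of the 11 markers called higher and 3 lower at a median of 0.12 (log2). Markers used for other cells and for proliferation were higher in low flow: 12 macrophage markers summed to 2120 to 3310 CPM against 68.8 to 168 in high flow, 10 neutrophil markers to 251 to 502 against 7.49 to 24.5, 7 smooth muscle markers to 2325 to 4304 against 526 to 621, and 9 proliferation markers to 492 to 1001 against 24.2 to 55.5. By edgeR 9 of 10 macrophage, 7 of 7 neutrophil and 9 of 9 proliferation markers tested were called higher, but 3 of 6 smooth muscle markers, with a median of 0.29 (log2). In the 3 libraries of primary cultured endothelial cells, smooth muscle and proliferation markers summed to 2636 to 5753 and 686.6 to 1288 CPM. Which cells of the flushed intima gave this RNA was not tested. Other lists were lower under low flow, with 7 fat cell markers at 29.8 to 70.3 CPM against 289.5 to 2908 (all 5 tested were called lower, with a median of -6.71 on the log2 scale) and 7 fibroblast markers at 66.9 to 459.7 against 300.7 to 927 (2 of 7 called lower). The flushed intima is a mixture, so fewer cells of a type and less RNA per cell cannot be told apart. Actb took 10.6% and 10.1% of the counts of low-flow pools a and b and 3.74% of pool c, against 0.516% to 1.51% in the high-flow and sham pools. The sources name the samples of a group as separate pools without saying which mice or days they came from, and p-values measure the spread between those pools.

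Upstream sequence is shown for Gata2 and Tal1 because both genes were lower under low flow and both have entries in the promoter table used here, which matched 4 of the 10 genes. The windows hold the 250 bases before an annotated start, read 5′ to 3′ on the gene's strand (RefSeq, GRCm38.p6). Short motifs were searched on both strands. The letters for ETS factors were CCGGAA. Those for the GATA family were AGATAA, and those for SOX proteins were AACAAT. The last motif, an E-box bound by factors such as TAL1, was CAGATG. Capitals mark the single match found in these windows, which reads TTATCT, the reverse complement of the second motif.
Gata2 window 1: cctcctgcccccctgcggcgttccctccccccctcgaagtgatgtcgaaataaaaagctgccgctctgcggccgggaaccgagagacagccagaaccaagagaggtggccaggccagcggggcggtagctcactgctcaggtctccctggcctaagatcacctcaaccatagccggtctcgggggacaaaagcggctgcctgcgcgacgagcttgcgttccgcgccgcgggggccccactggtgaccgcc
Gata2 window 2: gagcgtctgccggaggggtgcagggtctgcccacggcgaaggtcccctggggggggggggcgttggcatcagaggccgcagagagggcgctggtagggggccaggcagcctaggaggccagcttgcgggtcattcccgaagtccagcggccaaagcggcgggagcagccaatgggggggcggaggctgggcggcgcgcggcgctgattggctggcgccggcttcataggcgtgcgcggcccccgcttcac
Tal1 window 1: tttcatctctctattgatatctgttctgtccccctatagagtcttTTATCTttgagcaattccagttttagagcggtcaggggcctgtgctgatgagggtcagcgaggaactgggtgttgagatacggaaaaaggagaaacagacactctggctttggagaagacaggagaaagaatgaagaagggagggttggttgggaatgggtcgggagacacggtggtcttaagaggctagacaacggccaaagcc
Tal1 window 2: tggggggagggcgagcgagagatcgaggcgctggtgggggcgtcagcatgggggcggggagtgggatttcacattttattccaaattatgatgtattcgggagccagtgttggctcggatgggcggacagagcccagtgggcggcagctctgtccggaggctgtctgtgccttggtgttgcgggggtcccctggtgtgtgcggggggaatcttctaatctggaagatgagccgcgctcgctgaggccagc
Gata2 window 1 lies at chr6:88193641-88193890 on the plus strand and holds 67.2% G or C, and window 2 lies at chr6:88198414-88198663 on the plus strand and holds 74% G or C. Tal1 window 1 lies at chr4:115056176-115056425 on the plus strand, holds 48.8% G or C, and has its match 200 bases before the start. Tal1 window 2 lies at chr4:115057561-115057810 on the plus strand, holds 62.8% G or C and has no match. Of 32851 promoter windows of this length, 12.0% held the ETS letters, 9.99% the GATA letters, 9.42% the SOX letters and 14.4% the E-box letters. A match is a description of the letters only.

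In untreated arteries at 48 h the ETS factors split. Ets1 and Ets2 were higher under low flow, and Erg and Fli1, the factors best known for holding endothelial identity, did not pass the test. Both GATA factors, Sox17 and Tal1 were lower, and Sox7 and Sox18 did not pass the test. In all, 6 of the 10 genes were called at an adjusted p under 0.05, 2 higher and 4 lower, against a background of 46.2% of the 11236 genes tested (23.6% higher and 22.6% lower). The median difference of the 10 was -0.15 (log2), beside -0.07 over all genes tested. The same 6 genes had pools of low and high flow that did not overlap, as did 58.1% of all genes.

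**Figure D1:**
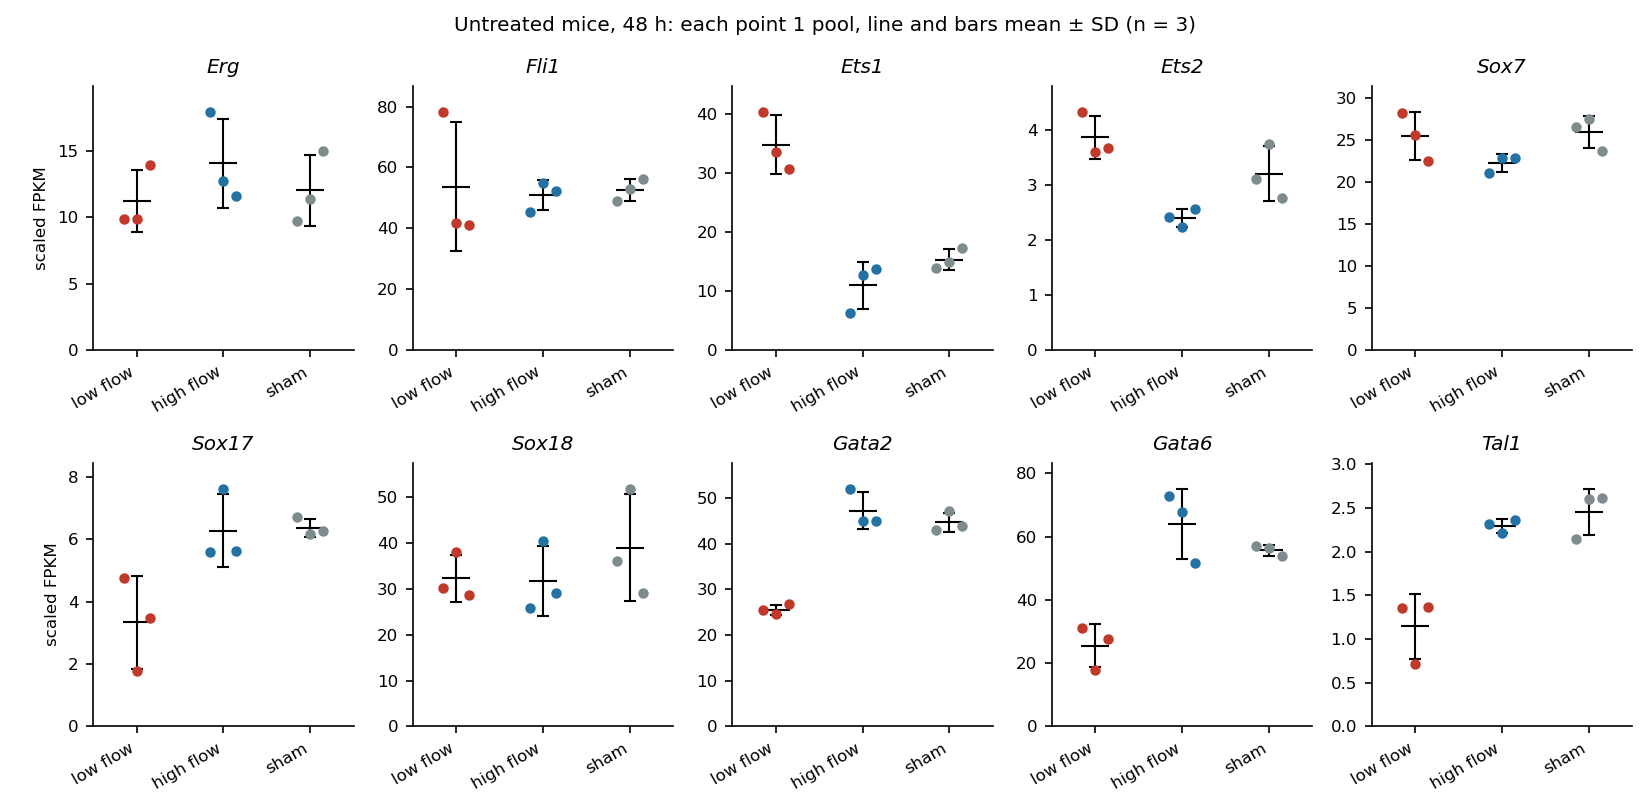
Scaled FPKM (linear axis from 0) of the 10 genes in the untreated pools at 48 h, with each point a pool and the line and bars the mean ± SD of 3 pools of low flow, high flow or sham. The low-flow Ets1 pools sit above all high-flow and sham pools, and the low-flow Gata2, Gata6, Sox17 and Tal1 pools sit below them.

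Ets1 (chr9:32443806-32565405, plus strand, mm9) was at 40.2, 33.5 and 30.6 scaled FPKM in low-flow pools a, b and c, at 6.31, 12.7 and 13.7 in the high-flow pools and at 13.8, 14.8 and 17.2 in the sham pools. Every low-flow pool lay above every other pool. The rise was 3.16-fold over high flow, with a log2 difference of 1.66 (SE 0.281, n = 3 pools per group, adjusted p = 0.000783, edgeR quasi-likelihood test with Benjamini-Hochberg adjustment). It passed the test in all 12 alternatives run, with adjusted p from 2.97e-07 to 0.0416. Ets2 (chr16:95923682-95942658, plus strand) was at 4.33, 3.61 and 3.68 scaled FPKM under low flow and 2.41, 2.24 and 2.57 under high flow, with log2 difference 0.68 (SE 0.225, adjusted p = 0.029, edgeR). These groups did not overlap either, but Ets2 rested on 30 to 80 counts per pool, and the call was lost without low-flow pool a (adjusted p = 0.1), without high-flow pool b (0.107) or c (0.0574), in DESeq2 (0.0634) and with library totals as the scale (0.03, 0.963). The neighbour of Ets1 on chromosome 9, Fli1 (chr9:32229793-32348974, minus strand), lies 94.8 kb away and was at 78.1, 41.7 and 41.0 scaled FPKM under low flow against 45.4, 55.0 and 52.4 under high flow. The low-flow pools lay on both sides of the high-flow pools. Its log2 difference was 0.07 (95% interval -0.52 to 0.66). Erg (chr16:95580776-95808200, minus strand), 115.5 kb from Ets2, was at 9.87, 9.91 and 13.95 scaled FPKM under low flow against 17.9, 12.7 and 11.6, with overlapping groups and a log2 difference of -0.31 (95% interval -0.82 to 0.20).

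Both GATA factors were lower under low flow. Gata2 (chr6:88143885-88157024, plus strand) was at 25.4, 24.5 and 26.7 scaled FPKM under low flow and at 52.0, 45.0 and 44.9 under high flow, with a log2 difference of -0.89 (SE 0.178, adjusted p = 0.00221, edgeR). The sham pools, at 43.1, 47.1 and 43.9, lay with the high-flow pools. The call held in 11 of 12 alternatives. Gata6 (chromosome 18, 11052508 to 11085633, plus strand) was at 31.1, 17.9 and 27.6 scaled FPKM under low flow and at 72.8, 67.7 and 51.7 under high flow, a fall of 2.51-fold with a log2 difference of -1.33 (SE 0.246, adjusted p = 0.00139, edgeR). All 3 low-flow pools lay below the lowest high-flow pool. This call held in all 12 alternatives, with adjusted p from 6.66e-06 to 0.0202.

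Among the SOXF factors, Sox17 (chr1:4481009-4486494, minus strand) was at 4.77, 1.79 and 3.47 scaled FPKM under low flow and 5.58, 7.62 and 5.62 under high flow. The low-flow pools held 55, 13 and 66 counts of it. The log2 difference was -0.88 (SE 0.301, adjusted p = 0.0337, edgeR), and the gap between the groups was narrow. The call was lost in DESeq2 (adjusted p = 0.0612) and without low-flow pool b (-0.63, 0.0846), low-flow pool c, or high-flow pool a or b. Sox18 (chr2:181404541-181406345, minus strand) was at 30.3, 38.1 and 28.6 scaled FPKM under low flow against 25.7, 40.4 and 29.1, with a log2 difference of 0.01 (95% interval -0.46 to 0.47). Sox7 (chr14:64562511-64569569, plus strand) was at 28.2, 25.6 and 22.5 against 21.0, 22.9 and 22.9, with a log2 difference of 0.18 (95% interval -0.19 to 0.56). Low- and high-flow pools overlapped for both genes.

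Tal1 (chr4:114729031-114744360, plus strand), the least abundant of the 10, was at 1.35, 0.715 and 1.37 scaled FPKM under low flow and at 2.31, 2.21 and 2.37 under high flow. The low-flow pools held 21, 7 and 35 counts, and none reached a high-flow pool. The log2 difference was -0.94 (SE 0.292, adjusted p = 0.0217, edgeR), and the call was lost in DESeq2 (0.0587) and without low-flow pool b (-0.75, 0.0595) or high-flow pool b or c. Of 8 genes known as TAL1 partners, 2 were higher and 3 lower, beside the 46.2% called over all genes. Cbfa2t3, a corepressor that binds TAL1, was at 3.35 ± 1.32 scaled FPKM under low flow against 19.5 ± 0.55 (SD, n = 3), Lmo2 changed by -1.56 and Ldb1 by -0.89 (log2), while Runx1, which blood cells also express, and Tcf4 changed by 1.40 and 0.71. Mast cells and basophils, which express Gata2 and Tal1, left little RNA in either group: their 6 markers summed to 0.442 to 1.23 CPM under low flow and 1.10 to 2.30 under high flow. The 9 platelet and megakaryocyte markers summed to 17.1 to 55.6 under low flow and 34.5 to 72.9 under high flow.

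The sum of endothelial markers moved with these differences, so the libraries were also scaled on the 11 endothelial markers instead of on all genes. This moved the median of all genes from -0.07 to 0.33 (log2, low minus high) and the background to 33.2% of genes. Under that scaling Ets1 was at 2.02 (adjusted p = 4.64e-07, edgeR) and Gata6 at -0.91 (0.0202), while Gata2 (-0.49, 0.239), Sox17 (-0.48, 0.429), Tal1 (-0.53, 0.44) and Ets2 (1.06, 0.0529) no longer passed. The markers themselves did not move as 1 group, with Emcn at 2.14 and Robo4 at 1.03 against Ramp2 at -1.83, Cldn5 at -1.53 and Icam2 at -1.27 (log2). The part of the macrophage, neutrophil, smooth muscle, fat cell, fibroblast and proliferation RNA in these differences was not tested.

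**Figure D2:**
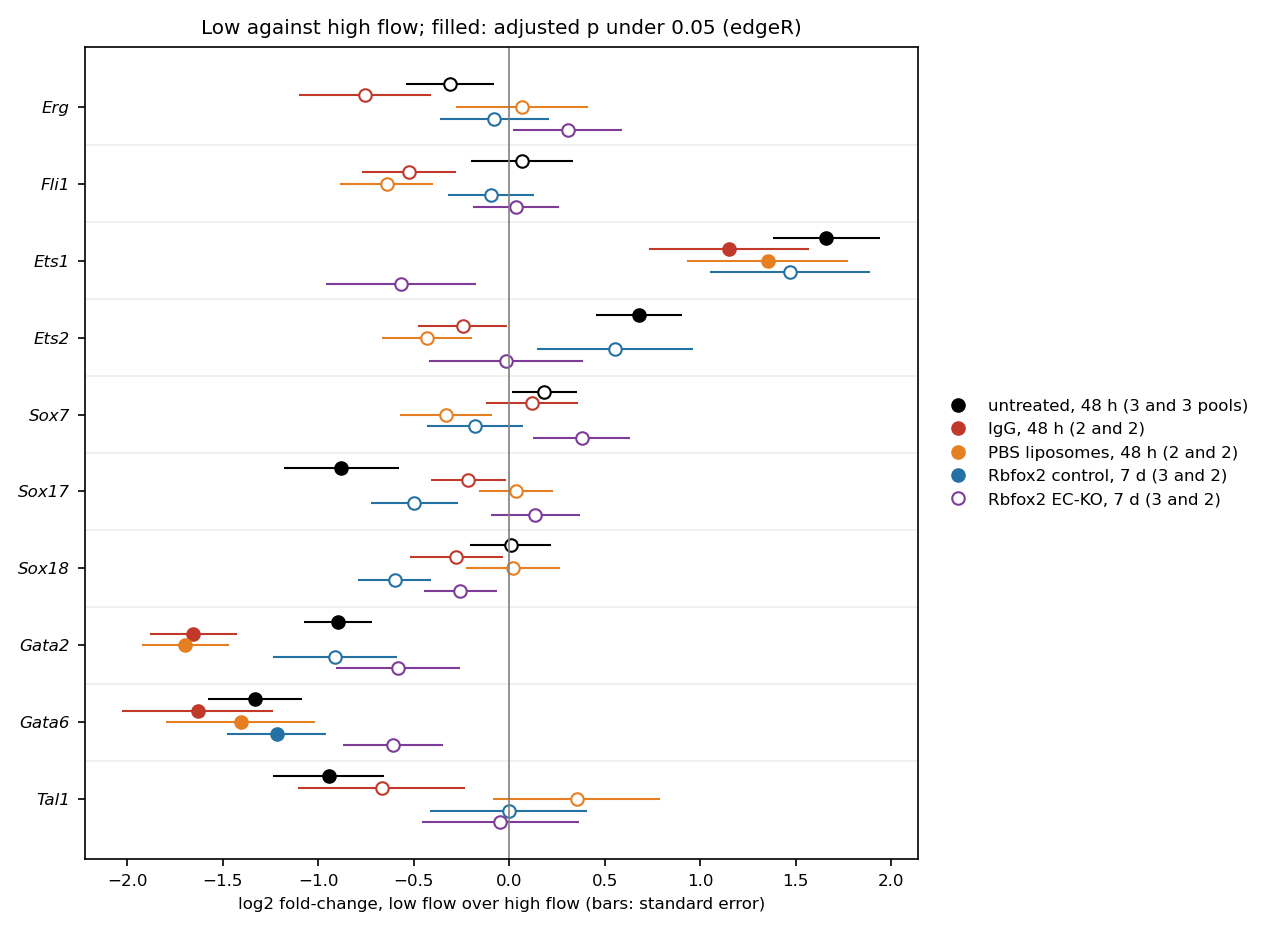
Log2 difference of low over high flow for the 10 genes in the untreated, IgG, PBS liposome and both 7-day comparisons, with each point the edgeR estimate, each bar its standard error and filled points an adjusted p under 0.05. Gata6 lies below 0 in every comparison shown (on the endothelial marker scaling it was 0.10 in EC-KO arteries), and Ets1 lies above 0 in all but the 7-day EC-KO comparison, where it was -0.57.

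Genes related to these factors were counted in the same comparison, where 46.2% of all genes were called, and shares near that figure are not results about the lists. Among 14 other ETS factors, 11 were tested, 3 were higher and 2 lower, with a median of 0.06 (log2). The largest rise was that of Sfpi1 (PU.1, the ETS factor of myeloid cells), at 5.42 ± 2.17 scaled FPKM against 0.0911 ± 0.0814 (SD, n = 3, adjusted p = 5.75e-05, edgeR), followed by Etv5 at 2.64 and Elk3 at 1.17 (log2). Of 18 other endothelial transcription factors, 14 were tested, 1 was higher and 6 were lower, with a median of -0.51: Bcl6b was at 1.91, and Foxc1 at -1.96, Hey2 at -1.25 and Epas1 (HIF-2α) at -2.29 (log2). Of 25 known endothelial targets of ETS, SOXF or GATA factors, 8 were higher and 7 lower, with a median of 0.41. All 11 endothelial markers are among these 25 genes. The target counts, the marker sums and the endothelial marker scaling are therefore not independent of each other. Angpt2, an angiopoietin that destabilises vessels, changed by 7.73 and Dll4, the arterial Notch ligand, by 3.35, while the junction gene Cldn5 changed by -1.53 and the nitric oxide synthase gene Nos3 by -1.29 (log2).

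Against sham arteries, 5 of the 10 genes were called under low flow, 1 higher and 4 lower, against a background of 40.3% (20.6% higher and 19.7% lower). The median of the 10 was -0.22 beside -0.04 over all genes. Ets1 was again higher, by 1.15 (log2, SE 0.19, adjusted p = 0.00324, edgeR), a 2.22-fold rise, although it was 0.44 (0.418) when libraries were scaled on their totals alone. Gata6 (-1.16, SE 0.226, 0.00599), Gata2 (-0.84, SE 0.163, 0.00575), Tal1 (-1.07, SE 0.283, 0.018) and Sox17 (-0.92, SE 0.291, 0.0335) were lower. Macrophage markers summed to 2120 to 3310 CPM under low flow against 208.5 to 638 in sham, neutrophil markers to 251 to 502 against 14.2 to 46.9, smooth muscle markers to 2325 to 4304 against 442 to 1629, proliferation markers to 492 to 1001 against 56.9 to 531 and endothelial markers to 5022 to 6250 against 9857 to 12306. Sham pool c held the highest macrophage, neutrophil, smooth muscle and proliferation sums of the 3 sham pools, and the part of these markers in the differences was not tested. The pools of these 5 genes did not overlap between low flow and sham, as for 56.5% of all genes. Ets2 was at 0.24 (adjusted p = 0.4) and its pools overlapped with sham, at 3.11, 3.75 and 2.77 scaled FPKM. The Sox17 call was lost without low-flow pool b or c or without any 1 of the sham pools, and the Tal1 call without sham pool b (0.0519). On the endothelial marker scaling, with a background of 24.8%, only Ets1 passed (1.41, adjusted p = 0.00145), with Gata6 at -0.84 (0.0856) and Gata2 at -0.54 (0.321).

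High-flow and sham arteries gave no call among the 10 genes at an adjusted p under 0.05 and none at an unadjusted p under 0.05, against a background of 0% of 11030 genes in edgeR (868 genes at an unadjusted p under 0.05, and 105 called by DESeq2, with none of the 10 among them). The 3 genes whose pools did not overlap were Ets1 at -0.50 (SE 0.256, adjusted p = 0.696), Ets2 at -0.43 (SE 0.218, 0.686) and Sox7 at -0.24 (SE 0.143, 0.763), each lower in high flow, beside 12.8% of all genes. Gata2 (0.07, SE 0.156) and Gata6 (0.19, SE 0.176) were near sham. The 3 comparisons of untreated arteries share pools and are not independent.

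The depletion set repeated the low to high comparison in 2 further pairs of groups, under IgG and under PBS liposomes, with deeper libraries and 2 pools per group. The same 3 genes, Ets1, Gata2 and Gata6, were called in both. Under IgG the background was 40.5% of 13401 genes (22.8% higher and 17.7% lower), and under PBS liposomes it was 35.0% (19.6% higher and 15.5% lower). The medians of the 10 were -0.40 under IgG and -0.16 under PBS liposomes, beside 0.07 and 0.06 over all genes. Low- and high-flow libraries of this set were also sequenced in different runs, so run and flow cannot be told apart within it. Macrophage markers summed to 2194 to 2364 CPM in the low-flow IgG pools against 73.7 to 278 in the high-flow IgG pools, neutrophil markers to 137 to 398 against 8.06 to 68.0, smooth muscle markers to 4370 to 4723 against 509 to 764 and proliferation markers to 693 to 1153 against 30.7 to 53.6, while fibroblast markers were at 347 to 400.4 against 890 to 1054. Under PBS liposomes macrophage markers summed to 1314 to 2197 against 114 to 208, neutrophil markers to 115 to 342 against 9.02 to 23.5, smooth muscle markers to 3023 to 5887 against 484.5 to 924, proliferation markers to 138 to 1048 against 8.45 to 390, and fibroblast markers to 171 to 269 against 465 to 642. Their part in the differences that follow was not tested. The share of all genes without overlap was not counted in this set. A lack of overlap given below is therefore a description only.

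Gata2 was at 40.7 and 38.5 scaled FPKM in the low-flow IgG pools and at 138 and 111 in the high-flow IgG pools, and at 32.1 and 27.7 against 109 and 84.7 under PBS liposomes. The groups were far apart in both. The log2 differences were -1.65 (SE 0.228, adjusted p = 0.000881, edgeR) and -1.69 (SE 0.228, 0.000596), falls of 3.15-fold and 3.24-fold. Gata6 was at 65.3 and 39.9 scaled FPKM under low-flow IgG against 136 and 190.1 under high flow, and at 49.8 and 44.7 against 143 and 108 under PBS liposomes. Its log2 differences were -1.63 (SE 0.394, adjusted p = 0.00832) and -1.41 (SE 0.391, 0.0175), and its groups did not overlap. Ets1 was at 26.5 and 27.9 scaled FPKM under low-flow IgG against 13.6 and 10.9, and at 33.2 and 32.9 against 12.7 and 13.2 under PBS liposomes, so its low-flow pools were higher in both. The log2 differences were 1.15 (SE 0.419, adjusted p = 0.0472) and 1.35 (SE 0.421, 0.0281). With 2 pools a group these calls rested on single libraries: that of Ets1 was lost without any 1 of its 4 libraries in either pair (adjusted p from 0.0853 to 0.186), that of Gata6 without high-flow or low-flow IgG pool 2 and without high-flow PBS pool 1 or either low-flow PBS pool, while Gata2 kept its call in every such fit.

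Endothelial markers summed to 5477 to 6509 CPM in the low-flow IgG pools against 14558 to 14936 in the high-flow IgG pools, and to 5099 to 5470 against 10907 to 13075 under PBS liposomes. Scaling on these markers moved the median of all genes to 1.46 under IgG and 1.12 under PBS liposomes, and the background to 64.8% and 52.3%. Gata2 was then at -0.27 (adjusted p = 0.307, edgeR) and -0.61 (0.0355), Gata6 at -0.26 (0.476) and -0.32 (0.402), and Ets1 at 2.54 (0.00156) and 2.41 (0.00317). Only Ets1 in both pairs and Gata2 under PBS liposomes passed on that scale, among the 3 genes.

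On the TMM scale the other 7 genes did not pass in edgeR in these pairs. Some of them passed on the endothelial marker scaling, where 64.8% of all genes were called under IgG and 52.3% under PBS liposomes. On that scale Fli1, Ets2, Sox17 and Sox18 were higher under low flow with IgG. The values that follow are on the TMM scale. Fli1 was at 37.7 and 51.2 scaled FPKM under low-flow IgG against 51.4 and 76.4 (log2 difference -0.52, adjusted p = 0.106), and at 35.2 and 46.0 against 62.4 and 64.3 under PBS liposomes (-0.64, 0.0615), with every low-flow pool below every high-flow pool of its pair but no call in edgeR. DESeq2 called it under PBS liposomes (0.0387). Erg was at 12.5 and 6.63 against 12.3 and 20.0 under IgG (-0.76, adjusted p = 0.0996) and at 8.72 and 9.66 against 9.51 and 8.05 under PBS liposomes (0.07, 0.895), with overlap in both. Tal1 was at 2.10 and 1.96 against 3.00 and 3.45 under IgG (-0.67, adjusted p = 0.236) and at 1.85 and 1.99 against 1.50 and 1.51 under PBS liposomes (0.35, 0.557), opposite in sign. Ets2, which was higher under low flow in the untreated pools, was at -0.24 (0.423) and -0.43 (0.175) here. Sox17 ran from 89.0 to 114.7 scaled FPKM over the low- and high-flow pools of both pairs, with log2 differences of -0.21 (0.397) and 0.04 (0.895). Sox18 was at -0.28 (0.383) and 0.02 (0.958), and Sox7 at 0.12 (0.71) and -0.33 (0.302).

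Anti-GPIba, given to deplete platelets, was compared with IgG to ask whether platelets are needed for the low-flow change. Under low flow it gave higher Gata2 and Gata6 and called 2 of the 10 genes, both higher, against a background of 16.5% (6.05% higher and 10.5% lower). The median of the 10 was 0.18 beside -0.04 over all genes. Gata2 was at 108 and 96.9 scaled FPKM after anti-GPIba and at 40.7 and 38.5 after IgG, a 2.58-fold rise with a log2 difference of 1.37 (SE 0.226, adjusted p = 0.0143, edgeR). Gata6 was at 168 and 143 against 65.3 and 39.9, a 2.96-fold rise with a log2 difference of 1.56 (SE 0.393, adjusted p = 0.0313). The anti-GPIba pools of both genes lay above the low-flow IgG pools, those of Gata6 fell between the high-flow IgG pools, and those of Gata2 lay just below them.

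Ets1 was at 11.2 and 10.8 scaled FPKM after anti-GPIba against 26.5 and 27.9 after IgG, with no overlap and a log2 difference of -1.30 (SE 0.42, adjusted p = 0.054, edgeR), just outside the threshold, and DESeq2 gave it an adjusted p of 0.0129. Sox18 was at 419 and 442 against 301 and 278 (0.57, adjusted p = 0.116), and Erg at 17.5 and 12.8 against 12.5 and 6.63 (0.66, 0.184), neither called. The other 5 genes lay between -0.17 and 0.27. The Gata2 call was lost without any 1 of its 4 libraries (log2 difference 1.29 to 1.44, adjusted p from 0.0511 to 0.112), as was that of Gata6 (1.25 to 1.97, 0.0531 to 0.229). The share of all genes called fell to between 0.00719% and 0.638% in those same fits. In a fit of these 2 groups alone they were 0.00289 and 0.00638.

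The 9 platelet and megakaryocyte markers, the antibody's target cells, summed to 22.9 to 28.8 CPM after anti-GPIba against 34.5 to 39.1 after IgG, with 1 of the 8 tested called higher and 1 lower. Other RNA moved with anti-GPIba as well. Endothelial markers summed to 10839 to 11066 CPM against 5477 to 6509 after IgG, macrophage markers to 227 to 322 against 2194 to 2364, neutrophil markers to 7.93 to 15.4 against 137 to 398, smooth muscle markers to 724 to 1024 against 4370 to 4723 and proliferation markers to 16.6 to 21.7 against 693 to 1153, while fibroblast markers were at 578 to 1038 against 347 to 400.4. The part of these shifts in the values of the 10 genes was not tested. With libraries scaled on endothelial markers, which moved the median of all genes to -0.89 and the background to 43.9%, Gata2 was at 0.52 (adjusted p = 0.0734, edgeR) and Gata6 at 0.74 (0.0738). Both kept their direction and neither was called. On the TMM scale, where 16.5% of all genes were called (6.05% higher and 10.5% lower), Sfpi1 was at 3.83 ± 1.90 scaled FPKM against 55.7 ± 6.44 (SD, n = 2, adjusted p = 0.0302), the TAL1 partners Lmo2 and Cbfa2t3 were higher by 1.52 and 1.75 and Runx1 lower at -3.40 (log2). Of 14 other endothelial factors tested, 3 were higher (Gata3, Foxc1 and Hey2) and 1, Bcl6b, was lower at -2.30. Of the 25 targets, 3 (Pecam1, Tek and Clec14a) were higher and 2 (Angpt2 and Flt1) lower, near the share over all genes.

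**Figure D3:**
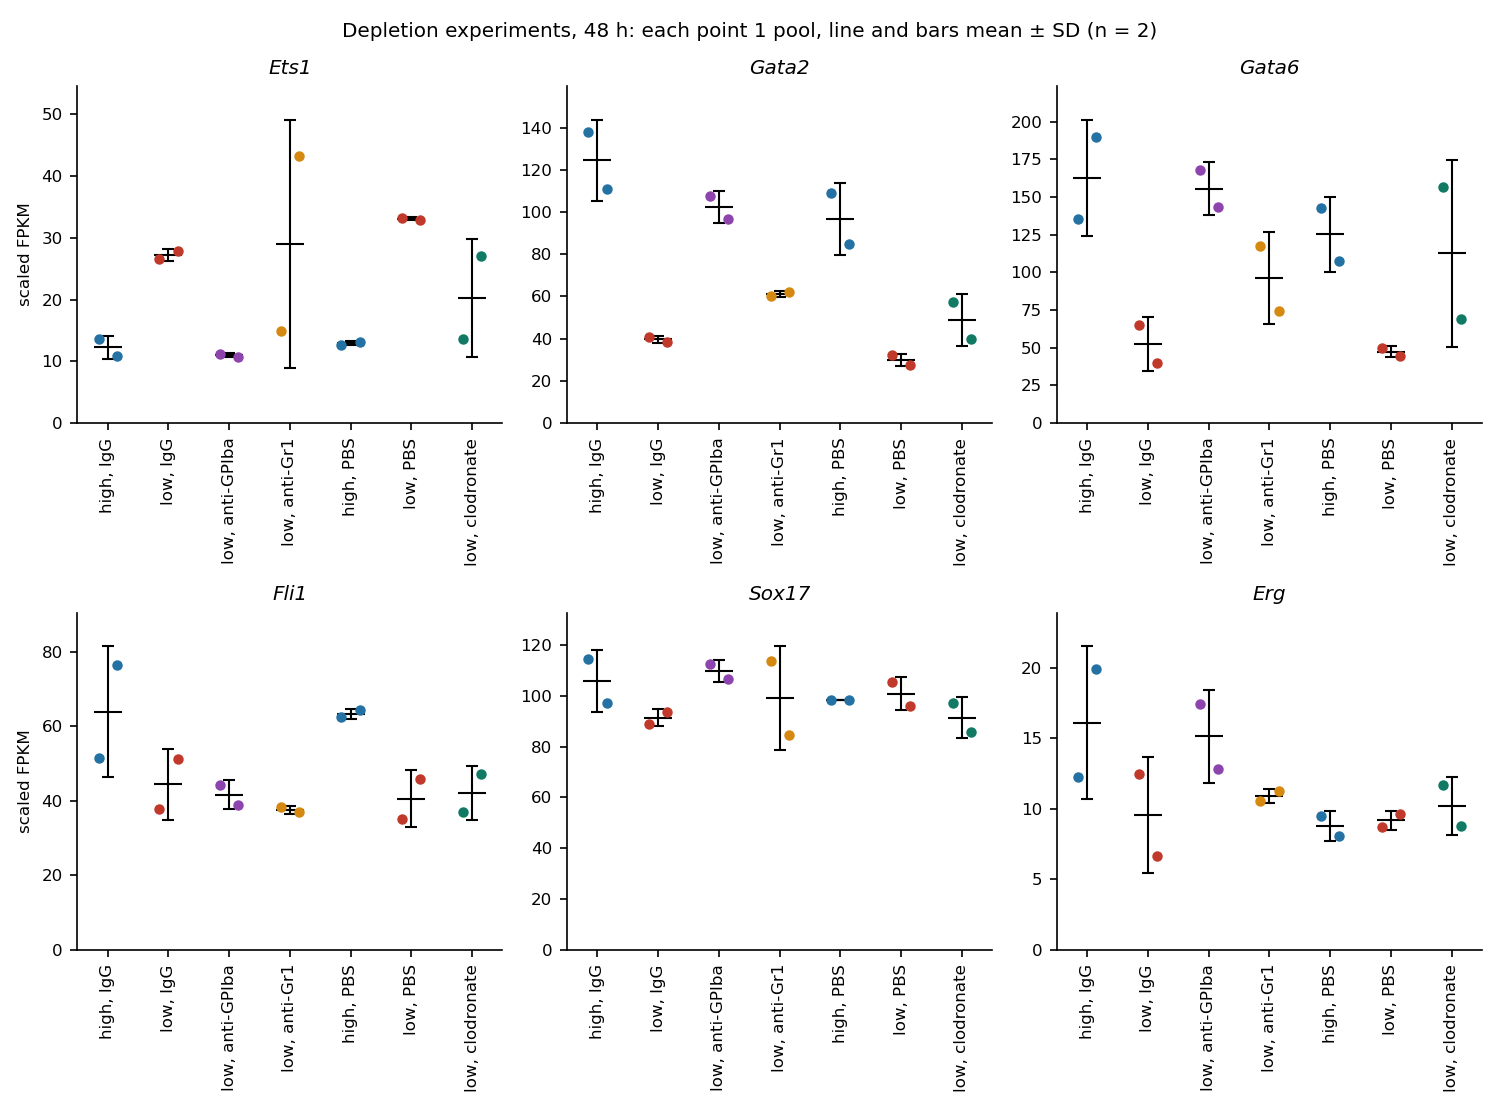
Scaled FPKM (linear axis from 0) of 6 of the 10 genes in the 7 groups of the depletion set at 48 h, with each point a pool and the line and bars the mean ± SD of 2 pools. The low-flow IgG and PBS liposome pools of Gata2 and Gata6 lie below their high-flow pools, and the anti-GPIba pools of Gata2, at 108 and 96.9, sit beside the high-flow pools.

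Anti-Gr1, given against neutrophils, called none of the 10 genes, against a background of 0% in edgeR (2432 genes at an unadjusted p under 0.05, and 197 called by DESeq2, none of the 10 among them). Gata2 was at 60.3 and 62.1 scaled FPKM against 40.7 and 38.5 after IgG, above both IgG pools, with a log2 difference of 0.63 (SE 0.223, unadjusted p = 0.0164, adjusted p = 0.243, edgeR). Gata6 was at 118 and 74.6 against 65.3 and 39.9 (0.87, SE 0.387, adjusted p = 0.27), again without overlap. Ets1 was at 14.8 and 43.2, 1 pool below and 1 above the IgG pools. Those 2 pools also differed in smooth muscle markers, at 1803 and 6231 CPM. Neutrophil markers summed to 20.6 to 39.9 CPM after anti-Gr1 against 137 to 398 after IgG, macrophage markers to 1265 to 1288 against 2194 to 2364 and proliferation markers to 47.8 to 90.2 against 693 to 1153. Endothelial markers were at 7205 to 8426 against 5477 to 6509 and fibroblast markers at 991 to 1051 against 347 to 400.4, and the part of these shifts in the Gata2 and Gata6 values was not tested. Scaling on endothelial markers moved the median of all genes to -0.4 (log2), with 0% of genes called in edgeR.

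Clodronate liposomes, given against macrophages, left macrophage markers at 231 to 242 CPM against 1314 to 2197 with PBS liposomes, and called none of the 10 genes, against a background of 0.119% (16 genes in edgeR, 2002 at an unadjusted p under 0.05, and 462 in DESeq2). Gata6 was at 156 and 68.8 scaled FPKM against 49.8 and 44.7, a log2 difference of 1.25 (SE 0.39, unadjusted p = 0.00798, adjusted p = 0.226, edgeR), and it was the 1 gene of the 10 that DESeq2 called (0.0453). Gata2 was at 57.4 and 40.0 against 32.1 and 27.7 (0.70, SE 0.224, adjusted p = 0.232). Both genes lay above the PBS pools in both clodronate pools. Other markers moved too, with neutrophil markers at 33.05 to 40.2 CPM against 115 to 342 with PBS liposomes, smooth muscle markers at 2442 to 2704 against 3023 to 5887 and endothelial markers at 6962 to 9994 against 5099 to 5470, and the part of these shifts was not tested. On the endothelial marker scaling, with the median of all genes at -0.55 and 0.672% of genes called, Gata6 was at 0.62 (adjusted p = 0.218, edgeR) and Gata2 at 0.12 (0.733). Ets1 was at 13.6 and 27.0 against 33.2 and 32.9, below them (-0.70, SE 0.415, adjusted p = 0.435). The first clodronate pool, which held the higher Gata6, had 9994 CPM of endothelial and 35.1 of proliferation markers, and the second 6962 and 1060. In a further pair of libraries read at 100 bp, 1 per group, Gata6 was at 53.7 FPKM with clodronate against 27.5 with PBS liposomes, Gata2 at 44.5 against 31.4 and Ets1 at 20.4 against 46.8. A fit that added this pair, with read length as a block, called 2.20% of 13472 genes and none of the 10, with Gata6 at 1.23 (adjusted p = 0.0589, edgeR), Gata2 at 0.70 (0.0617) and Ets1 at -0.81 (0.218).

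At 7 days the low to high comparison in Rbfox2 controls called 1 of the 10 genes, Gata6, which was lower, against a background of 2.40% (0.959% higher and 1.44% lower). The median of the 10 was -0.14 beside 0.04 over all genes. Gata6 was at 80.6, 47.7 and 62.9 scaled FPKM in the low-flow pools 1, 4 and 5 and at 149.8 and 147 in the high-flow pools 4 and 5, a fall of 2.33-fold with a log2 difference of -1.22 (SE 0.261, adjusted p = 0.0443, edgeR). The groups were well apart, but the call was lost without any 1 of low-flow pools 4 and 5 and high-flow pools 4 and 5, and in a fit of the 2 groups alone (0.216). The low-flow control pools 1, 4 and 5 came from 3 different sequencing runs, and the high-flow pools from the run of low-flow pool 4. Pool 1, of the earliest run, also stood apart in its markers, with proliferation at 121 CPM against 1395 and 1786 in pools 4 and 5, endothelial at 10031 against 5521 and 6019, lymphocyte at 273 against 27.2 and 10.9, and fat cell at 252 against 8.72 and 25.1. Without it the difference was -1.42 (adjusted p = 0.00278). The background then rose to 29.4% of 13251 genes, and 5 of the 10 were called: Ets1 higher (1.55, adjusted p = 0.0273, edgeR), and Gata6, Gata2 (-1.32, 0.00325), Sox17 (-0.71, 0.019) and Sox18 (-0.59, 0.0332) lower. With EC-KO pool 1, of the same run, left out as well, 29.2% of genes and the same 5 of the 10 were called. With the pool number as a block, 3 of the 10 were called (Ets1 at 1.42, Gata2 at -1.25 and Gata6 at -1.43) beside 22.0% of all genes. The number of calls in this comparison thus turned on that library, and the part of its run and of its markers was not tested.

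Ets1 was at 38.6, 54.6 and 36.5 scaled FPKM in the low-flow controls against 13.3 and 17.9 in the high-flow controls, a log2 difference of 1.47 (SE 0.418, adjusted p = 0.0741, edgeR), and DESeq2 called it (0.00536). Gata2 was at 108, 48.7 and 60.1 against 128 and 144 (-0.91, SE 0.324, adjusted p = 0.12), and Sox18 at 337, 323 and 357 against 503 and 524 (-0.60, SE 0.19, 0.0923). Low- and high-flow pools did not overlap for any of these 3 genes. Sox17 was at 98.3, 65.5 and 67.8 against 110.2 and 107.6 (-0.50, SE 0.23, adjusted p = 0.212), also apart. Erg (-0.08), Fli1 (-0.09), Sox7 (-0.18), Tal1 (0.00) and Ets2 (0.55, SE 0.41) had overlapping pools. Endothelial markers summed to 5521 to 10031 CPM in the low-flow controls and to 13680 to 13829 in the high-flow controls. Macrophage markers summed to 318 to 1621 CPM under low flow against 47.2 to 131, smooth muscle markers to 1292 to 1767 against 294.5 to 390 and proliferation markers to 121 to 1786 against 32.8 to 34.4, and their part in these differences was not tested. On the endothelial marker scaling, which moved the median of all genes to 1.14 and the background to 46.9%, Gata6 was at -0.17 (0.601), Ets1 at 2.63 (0.0164) and Ets2 at 1.64 (0.0205). On the TMM scale, where 2.40% of all genes were called, Cbfa2t3 was at -2.53 and Epas1 at -2.60, each the only gene of its list called, and of the 25 targets 2 were higher and 5 lower.

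In Rbfox2 EC-KO arteries the same comparison called none of the 10 genes, against a background of 1.09% (146 genes in edgeR, 2099 at an unadjusted p under 0.05, and 964 in DESeq2, none of the 10 among them). Gata6 was at 104, 65.7 and 81.7 scaled FPKM under low flow against 119 and 137 under high flow, without overlap, and its log2 difference was -0.61 (SE 0.261, unadjusted p = 0.0422, adjusted p = 0.3, edgeR). Gata2 was at 105, 72.1 and 70.6 against 116 and 131 (-0.58, SE 0.325, adjusted p = 0.419), also without overlap. Ets1 was at 23.2, 22.7 and 20.9 against 49.9 and 16.0, so that the 2 high-flow EC-KO pools lay on either side of the low-flow ones (-0.57, SE 0.393, adjusted p = 0.516). With the pool number as a block Gata2 (-0.86, adjusted p = 0.0269, edgeR) and Gata6 (-0.81, 0.0275) were called lower, beside 9.86% of all genes, and both were also called (-0.79, 0.0328 and -0.80, 0.0471) beside 8.36% of genes with both pools numbered 1 left out. Endothelial markers summed to 8194 to 9112 CPM in the low-flow EC-KO pools against 13981 to 14214 in the high-flow ones, macrophage markers to 989.9 to 1780 against 83.3 to 105, smooth muscle markers to 1098 to 1684 against 275 to 323 and fibroblast markers to 1024 to 4721 against 394.5 to 549. Their part in these values was not tested. Scaling on endothelial markers moved the median of all genes to 0.71 and called 0.749% of them, and the sign of both genes changed, with Gata6 at 0.10 (adjusted p = 0.808, edgeR) and Gata2 at 0.12 (0.752).

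Direct tests of genotype called none of the 10 genes. Under low flow the background was 0% (880 genes at an unadjusted p under 0.05, and 16 called by DESeq2, none of the 10 among them). Without low-flow control pool 1, 11.1% of 13251 genes were called (738 higher and 738 lower in EC-KO arteries), still with none of the 10 among them, but that fit kept EC-KO pool 1 of the same sequencing run. With both left out, 2.84% of 13159 genes and none of the 10 were called, with Sox17 at 0.70 (SE 0.157, adjusted p = 0.0543, edgeR), Gata2 at 0.39 (0.216), Gata6 at 0.42 (0.247) and Ets1 at -1.07 (0.211). With all pools Ets1 was lower in all 3 EC-KO pools than in all 3 control pools, with a log2 difference of -0.96 (SE 0.358, unadjusted p = 0.0233, adjusted p = 0.692, edgeR). Sox17 (0.37), Gata6 (0.40), Erg (0.38) and the other 6 genes overlapped between genotypes. Under high flow the background was 0.00749% (1 gene, with 293 at an unadjusted p under 0.05 and 29 in DESeq2), and Ets1 was at 1.08 (SE 0.44, unadjusted p = 0.0345, adjusted p = 1). The test of whether the flow difference itself differed by genotype had a background of 0% (538 genes at an unadjusted p under 0.05, and 21 in DESeq2). For Ets1 it gave -2.04 (log2, SE 0.568, unadjusted p = 0.00505, adjusted p = 0.986), the only one of the 10 under 0.05 before adjustment, and -1.02 without high-flow EC-KO pool 4. In that pool Ets1 was at 49.9 scaled FPKM and the 9 lymphocyte markers summed to 543.9 CPM, against 16.0 and 56.3 in the other high-flow EC-KO pool. The low-flow controls differed in this. There Ets1 was highest in pool 4, at 54.6 scaled FPKM, with 27.25 CPM of lymphocyte markers. These markers were highest in pool 1, at 272.8 CPM. ETS1 is abundant in T and B cells, and the part of such RNA in the Ets1 values was not tested.

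**Figure D4:**
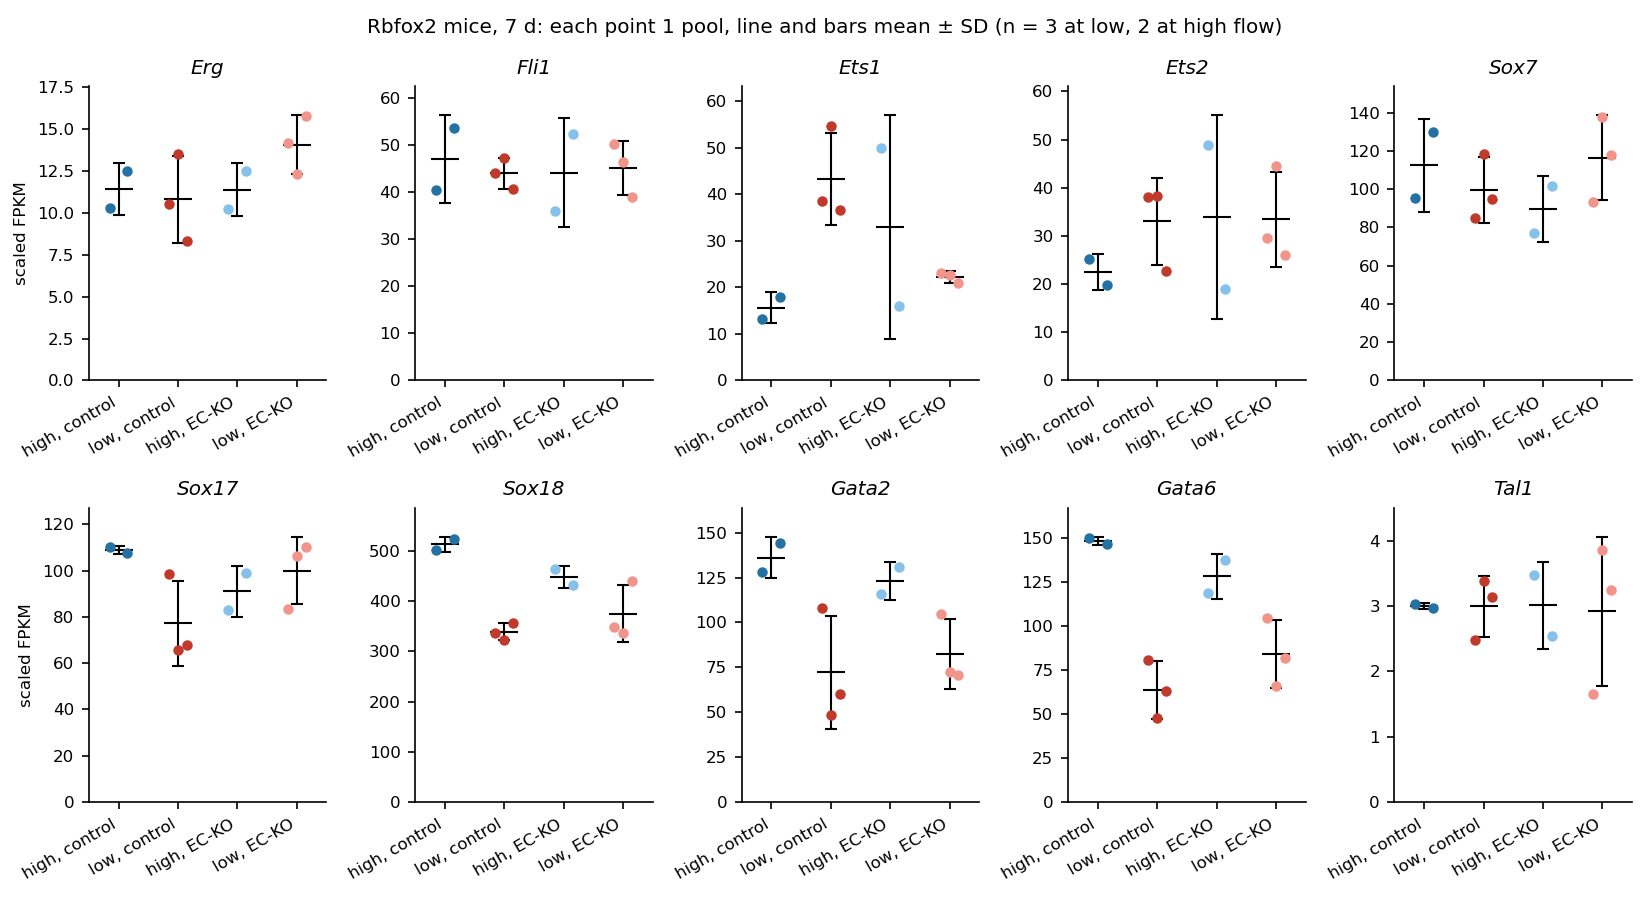
Scaled FPKM (linear axis from 0) of the 10 genes at 7 days in Rbfox2 control and Rbfox2 EC-KO arteries, with each point a pool and the line and bars the mean ± SD of 3 low-flow or 2 high-flow pools. The 3 low-flow control pools of Gata6 lie at 47.7 to 80.6, below the high-flow controls at 147 and 149.8, and 1 high-flow EC-KO pool of Ets1 stands at 49.9.

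Cultured cells had 1 library each, so their values carry no replicate check and no test, and the 95% intervals given with ratios cover counting error only. They are plain FPKM, scaled to the library total. The immortalised line held little of the SOXF and Erg RNA seen in primary cells. Sox17 was at 0.388 FPKM in the untreated line (17 counts) and at 39.4 in primary Rbfox2 control cells, a ratio of 0.00985 (0.00573 to 0.0158). Sox18 was at 2.40 against 131, Sox7 at 6.22 against 128, and Erg at 0.0329 (1 count) against 10.2, a ratio of 0.00322 (8.13e-05 to 0.0181). The 11 endothelial markers were also low in the line, at 292 to 378 CPM over its 4 libraries against 5262 in the primary control cells.

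The eGFP+ primary cells, read at 100 bp where the others were read at 150 bp, held Sox17 at 3.76 FPKM (56 counts), Sox18 at 14.4, Sox7 at 29.9 and Erg at 9.97. Their Sox17, Sox18 and Sox7 were thus well below those of the primary Rbfox2 control cells but above those of the untreated line. The labels also give day 5 for the eGFP+ cells and day 7 for the primary Rbfox2 cells. Read length, cell source and day cannot be told apart between the primary libraries.

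The remaining factors differed less between the line and the Rbfox2 control cells. Fli1 was at 10.4 FPKM in the line against 71.5, Tal1 at 1.80 against 5.37, Gata2 at 42.0 against 101 and Ets1 at 18.1 against 29.8, all lower in the line. The eGFP+ cells held Fli1 at 46.6 FPKM, Tal1 at 1.80, Gata2 at 42.1 and Ets1 at 13.9, so that Fli1 was lower in the line than in both primary libraries, Gata2 and Tal1 were close to the eGFP+ cells and Ets1 was above them. Higher in the line than in the Rbfox2 control cells were Gata6 and Ets2. Gata6 was at 158 against 86.9, a ratio of 1.82 (1.75 to 1.89), and Ets2 at 79.6 against 21.7, a ratio of 3.66 (3.42 to 3.92). The eGFP+ cells were lower still, with Gata6 at 41.1 and Ets2 at 6.35 FPKM.

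All additions together moved Sox7 and Gata6 most among those of the 10 genes with over 100 counts. With plasma, platelets and macrophages together Gata6 was at 83.0 FPKM against 158 in the untreated line, a ratio of 0.526 (0.506 to 0.547), while plasma alone gave 169 and platelets with macrophages 161. Sox7 was at 13.3 with all additions, 9.95 with plasma and 11.1 with platelets and macrophages against 6.22 alone, a ratio of 2.14 (1.86 to 2.46) for all additions. Gata2 was at 52.0 with all additions against 42.0, opposite in direction to Gata6, and Ets1 at 20.3 against 18.1. Macrophage markers summed to 20.6 CPM in the untreated line, 57.2 with plasma and 294 with everything added, and reached 391 where only platelets and macrophages were given. RNA of the added cells is part of those libraries.

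In primary cells, Rbfox2 was at 0.675 FPKM in the EC-KO and 9.33 in the control library. Sox18 was at 189 in EC-KO against 131, a ratio of 1.44 (1.37 to 1.52), Sox7 at 170.4 against 128 and Ets2 at 33.4 against 21.7, while Gata6 (89.1 against 86.9), Sox17 (40.5 against 39.4) and Ets1 (27.1 against 29.8) were close. The EC-KO library had 2.01 CPM of macrophage markers and the control library 326.6.

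**Figure D5:**
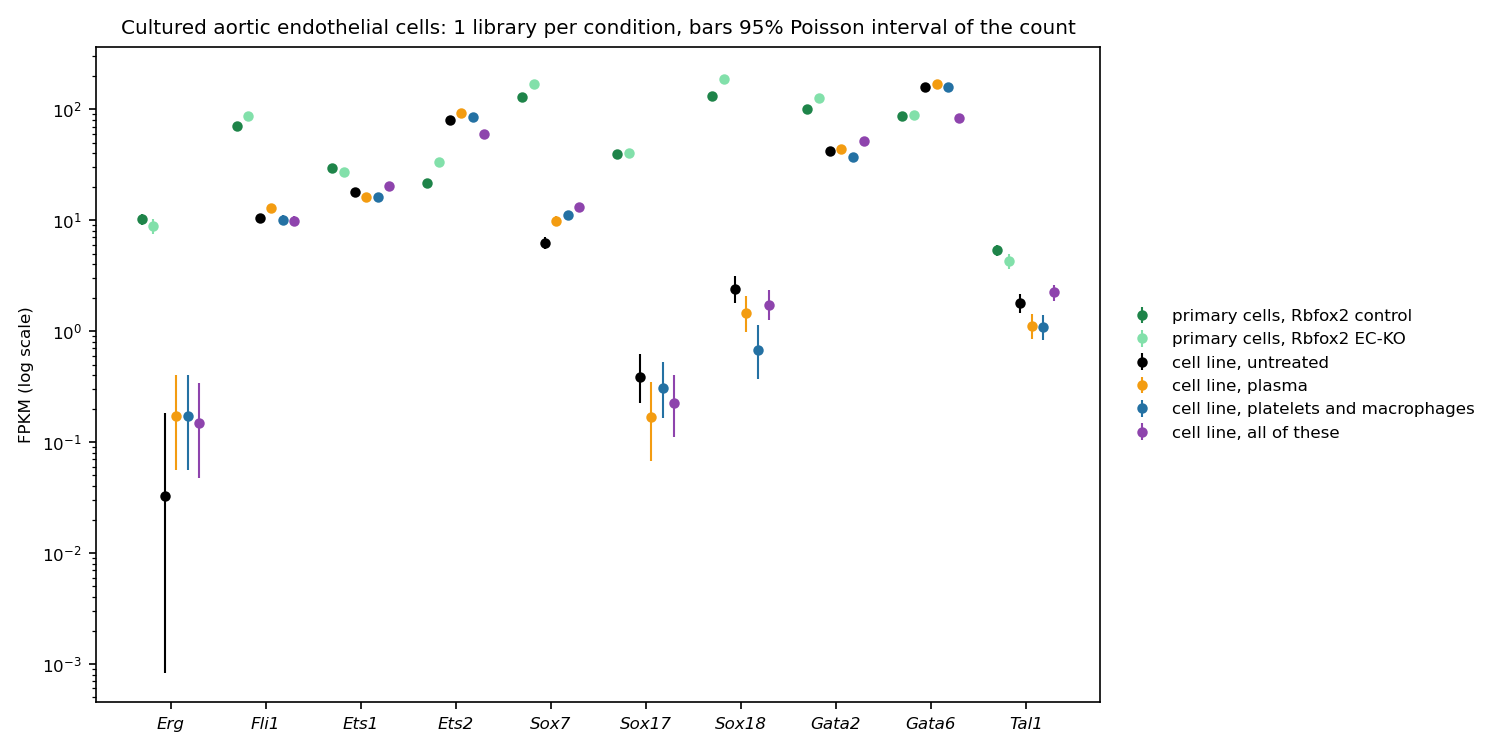
FPKM (log axis) of the 10 genes in 6 single libraries of cultured aortic endothelial cells, 4 of the immortalised line and 2 of primary Rbfox2 cells, with bars the 95% Poisson interval of the count. Erg, Sox17 and Sox18 lie far lower in all 4 libraries of the line than in the primary cells, and Gata6 lies at 83.0 to 169 in the line.

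The order of the 10 genes by level, per length and on the plain FPKM scale, was compared within each set only. Tal1 had the lowest mean in all 14 artery groups. In untreated high flow the order was led by Gata6 (74.1 ± 11.2 FPKM, SD, n = 3), Fli1 (59.2 ± 7.68) and Gata2 (54.7 ± 2.74), neighbours whose pools overlapped, and went on with Sox18 (37.0 ± 9.87) and Sox7 (25.8 ± 2.12), each apart from the next. Erg (16.3 ± 3.28), Ets1 (12.8 ± 5.01) and Sox17 (7.29 ± 1.51) overlapped their neighbours in turn, and Ets2 (2.79 ± 0.215) and Tal1 (2.66 ± 0.12) overlapped each other at the bottom. Sham arteries gave the same order but with Ets1 above Erg. In untreated low flow Fli1 led (37.7 ± 12.8), Ets1 rose to position 2 (25.1 ± 8.13) from position 7 in high flow, and Gata6 stood at position 4 (19.4 ± 10.6), although neighbours overlapped at every step but that from Erg (8.89 ± 5.82) to Ets2 (2.85 ± 1.12). In all 11 groups of the depletion and 7-day sets Sox18 had the highest mean, from 297 to 495 FPKM, and none of its pools overlapped with those of the next gene. These groups were all read at 150 bp. In the low-flow PBS liposome library read at 100 bp, Sox18 was at 35.2 FPKM, below Fli1 (63.4) and Ets1 (46.8) and close to Sox7 (35.7). Gata6 was second in the high-flow groups of these sets and at position 4 or 5 in the low-flow IgG, PBS liposome, Rbfox2 control and Rbfox2 EC-KO groups.

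Genes were also ranked by how closely their centred log2(FPKM + 1) profile over the 14 artery groups followed that of each of the 10, as the root mean square difference among 11354 genes. The closest to Gata2 were Rab3d (0.121) and Slc44a2 (0.126), beside a spread of 0.786 in the Gata2 profile itself. Those to Gata6 were Rora (0.195) and Tyro3 (0.213), and those to Ets1 were Zfp296 (0.267) and Map4k1 (0.279). The rest were Tnrc6a and 4933407K13Rik for Erg, Atg4a and Gnl3l for Fli1, Sipa1 and Cables2 for Ets2, Cdyl and Lman2 for Sox7, Crtap and Tprgl for Sox17, 2510039O18Rik and Hgsnat for Sox18, and 9030418K01Rik and Magi1 for Tal1, at 0.105 to 0.181. None of the 20 was another of the 10 factors. Groups of a set share read length and processing, and with each set centred on its own mean 3 of the 20 genes stayed among the closest 2, namely Rab3d and Slc44a2 for Gata2 and Gnl3l for Fli1.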

How the data were processed

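RNA from the flushed carotid intima was amplified with a SMARTer low-input kit and sequenced. The processing notes name mm9, STAR 2.5.1b and RSEM 1.2.15. The study mapped the depletion and 7-day libraries with STAR, but for the untreated pools its methods describe TopHat on trimmed reads while the columns used here are named for 100 bp reads, so the mapper and read length behind those counts are uncertain. The authors deposited RSEM expected counts per gene, of which 5.20% to 19.3% per library were not whole and which were rounded here. One entry without a name was left out, and 162 of 204 per-library columns (such as RPKM and repeat runs) were not used. Each untreated pool has count columns of 2 sequencing runs, of which the first was used.

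Differences were tested over all genes that passed filterByExpr with edgeR 4.0.16 (R 4.3.3, TMM scaling, quasi-likelihood test, Benjamini-Hochberg adjustment, threshold 0.05), on the groups compared for untreated arteries and on all groups of the set for the others. Scaled FPKM is count per kilobase of effective length at the TMM-scaled library size, and plain FPKM uses the library total. The alternatives were DESeq2 1.42.0, RLE scaling, scaling on 11 endothelial markers or on library totals, leaving out both 7-day pools numbered 1 (these last 2 chosen after seeing the data), no filter, 2 groups alone or all untreated groups together, a replicate block, adding the 100 bp libraries to the clodronate comparison and leaving out each pool. The code was tested on simulated data. Named genes followed a rule: the 10 factors, up to 3 genes each way per list by adjusted p, and the 2 genes nearest in profile to each factor over genes with a mean of at least 1 FPKM. The 10 factors and the gene lists were chosen with earlier results of these data known. Gene positions are those of GENCODE vM1 on mm9, and sequences are RefSeq's. In the 7-day low-flow comparison of genotypes, pools of the same number deviated together from their group means (r = 0.489, 0.17 and 0.272 over 13352 genes), and blocking on the number changed no call. Genes that overlap or share sequence can share reads, and RSEM divides such reads by estimate.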

Additional observations from a re-analysis of the deposited data

How the results depend on the processing

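Over 1610 alternative values, 1269 kept their direction and side of the threshold, 71 more kept them but moved by over 1 standard error, 163 changed sign without ever being called, 39 became called, 62 lost a call and 6 reversed. Ets1 and Gata6 in untreated low against high flow and Gata2 under PBS liposomes kept their call throughout. The cause of the changes that follow was not tested. Scaling on endothelial markers shifts all genes of a comparison alike (the median over all genes became -0.89 after anti-GPIba, 1.46 under IgG and 1.14 in 7-day controls), so genes near 0 change sign by construction. It reversed Ets2 after anti-GPIba (-0.75), Fli1 (0.89), Ets2 (1.14), Sox17 (1.18) and Sox18 (1.11) in low against high flow under IgG, and Fli1 (1.03) in 7-day controls, and gave 2 of the 10 genes called for untreated low against high flow (33.2% of all genes), 1 for low against sham (24.8%), 4 for anti-GPIba (43.9%), 6 under IgG (64.8%), 6 under PBS liposomes (52.3%) and 3 in 7-day controls (46.9%). DESeq2 called 3 genes in untreated low against high flow (35.7%), 1 with clodronate (3.60%) and 3 in 7-day controls (16.8%). A fit of the 2 groups alone called 4 genes for anti-GPIba (34.5%) and 0 in 7-day controls (0.0234%), and library totals called 0 there (1.87%). The replicate block called 3 genes in 7-day controls (22.0%) and 2 in 7-day EC-KO arteries (9.86%). It called 3 for anti-GPIba (24.7% of all genes), 3 under IgG (43.4%) and 4 under PBS liposomes (38.1%). With 2 pairs in each of these comparisons pairing is not established. Correlations of the deviations were from -0.068 to 0.378, and no source says whether low- and high-flow pools of a number came from the same mice. Leaving out both pools numbered 1, chosen after seeing the data, called 5 genes in 7-day controls (29.2%) and 2 in EC-KO arteries (8.36%). The letters of the untreated pools could not be paired, and the columns used for these pools are matched to their group only. The planned fits on the other sequencing run and on the sum of both runs were not run, so how the untreated calls depend on the run is not known. Leaving out 1 library gave 3 to 5 called genes in untreated low against high flow (35.5% to 47.8% of all genes), 3 to 5 in low against sham (21.9% to 41.8%), 0 to 0 for anti-GPIba (0.00719% to 0.638%), 0 to 2 with clodronate (0% to 6.69%), 1 to 3 under IgG (15.3% to 30.4%), 1 to 2 under PBS liposomes (10.7% to 27.4%) and 0 to 5 in 7-day controls (0.0216% to 29.4%), where 5 were called without low-flow control 1. The count fell to 3 without high-flow pool b or sham pool b in the untreated set, and rose to 2 without clodronate pool 2. With 2 or 3 pools a group and 7 to 80 counts per low-flow pool for Tal1, Sox17 and Ets2 in the untreated set, values of these genes carry a wide counting error.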

Other observations

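Levels were not comparable between sets. Low-flow arteries of PBS liposome mice were sequenced both as 150 bp and as 100 bp libraries. Sox18 was 9.38 times as high in the 150 bp libraries, Sox17 7.31 times, Ets2 2.26 times and Sox7 1.97 times, while Erg was at 0.537 and Tal1 at 0.523 of their 100 bp level. The median ratio over 10392 genes was 1.13, and 90% of genes lay between 0.387 and 4.12, so Sox17 and Sox18 lay outside that range.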
